A study of Mus musculus with 6 samples.

Results

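Basophil and mast cell genes were followed in the 6 RNA-seq libraries of a mouse study of iron overload in acute myeloid leukemia. The 7 genes are Mcpt8, Prss34, Cpa3, Gata2, Ms4a2, Fcer1a and Cd200r3, out of 54532 genes with a deposited value. They are a listed group, selected on the macrophage values with and without leukemia, because Mcpt8 was among the genes that differed most between them. All 7 were found by their Ensembl identifiers with the GENCODE M21 annotation. The values behind the choice are therefore given as a description.

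Each condition has 1 library, so no value has a replicate check and no p-value is given. Macrophages came from WT mice given PBS, WT/FE mice given iron dextran, MA9 mice with leukemia given PBS, and MA9/FE mice with leukemia given iron dextran. The leukemia cells were taken from BM, in 1 library of MA9 and 1 of MA9/FE. All mice are on the C57BL/6 background. MA9 stands for a transplanted leukemia made with a retrovirus that carries MLL-AF9 and GFP, and FE marks repeated intraperitoneal iron dextran. By the methods, macrophages were sorted from GFP- cells as positive for F4/80, with low Gr-1 and intermediate CD115. The sample labels give the spleen as their source and the methods give the BM, and this difference was not settled. The labels do not say how many mice went into a library.

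Basophils and mast cells of mice carry the high-affinity receptor for IgE. When an antigen crosslinks IgE on this receptor, they release granules that hold histamine and proteases. The proteases differ between them: in mice Mcpt8 and Prss34 are granule proteases of basophils, whereas the tryptases Tpsab1 and Tpsb2 and several other Mcpt proteases mark tissue mast cells. Both lineages depend on the transcription factor GATA2, which binds DNA at sites with a GATA core. Basophils are rare in the blood, BM and spleen of mice.

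The promoters are shown first because the motif of the GATA family, whose member Gata2 is among the 7 genes, lies close to the start of most of them. The forms AGATAA and TGATAA and their reverse complements TTATCT and TTATCA were searched on both strands in the 250 bases before each RefSeq start (GRCm38.p6). All 7 genes matched a RefSeq promoter, with 8 starts because Gata2 has 2. Prss34, Cpa3, Ms4a2, Fcer1a and Cd200r3 held a form, 5 of 7 genes, against 16.6% of 32817 RefSeq promoters. Mcpt8 and Gata2 held none. The 150 bases before the start of the 5 genes are given 5′ to 3′ on the strand of the gene, with the GATA forms in capitals:
Prss34 (chr17:25298244-25298393, plus strand): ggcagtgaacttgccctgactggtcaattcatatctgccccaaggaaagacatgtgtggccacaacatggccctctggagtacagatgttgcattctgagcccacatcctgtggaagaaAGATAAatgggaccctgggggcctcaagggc
Cpa3 (chr3:20242182-20242331, minus strand): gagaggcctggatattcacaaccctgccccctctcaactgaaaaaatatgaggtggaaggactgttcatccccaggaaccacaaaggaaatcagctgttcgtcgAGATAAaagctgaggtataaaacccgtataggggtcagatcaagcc
Ms4a2 (chr19:11623720-11623869, minus strand): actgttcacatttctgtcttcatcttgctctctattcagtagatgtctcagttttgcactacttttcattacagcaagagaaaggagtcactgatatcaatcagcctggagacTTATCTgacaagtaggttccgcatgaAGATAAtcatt
Fcer1a (chr1:173227230-173227379, minus strand): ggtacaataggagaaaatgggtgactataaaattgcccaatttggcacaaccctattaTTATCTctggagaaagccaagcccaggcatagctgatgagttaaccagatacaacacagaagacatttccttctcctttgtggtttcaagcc
Cd200r3 (chr16:44943528-44943677, plus strand): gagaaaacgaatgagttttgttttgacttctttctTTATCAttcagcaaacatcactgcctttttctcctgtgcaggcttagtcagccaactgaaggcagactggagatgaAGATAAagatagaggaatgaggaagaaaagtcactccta

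Counted as the first base of the motif before the start, the forms lay at 31 bases in Prss34, 46 in Cpa3, 92 in Fcer1a, 115 and 39 in Cd200r3, and 224, 37 and 11 in Ms4a2. The farthest of the Ms4a2 forms is outside the stretch shown. The STAT form TTCNNNGAA was found before the start of 0 of the 7 genes, against 7.01% of the promoters. A match is a description of these letters and not a measured binding site.

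The deposited values are FPKM, and reads were recovered from them as whole multiples. The libraries held between 16085346 and 19518359 reads. Intervals below are exact 95% intervals for counting error, which do not include the difference between mice. Levels summed over genes are given as RPM, the reads per 1000000 reads of the library, and a ratio is the ratio of RPM between 2 libraries. A gene was called when its fold on the log2(FPKM + 1) scale reached 2, with a minimum of 10 reads in either library of the pair.

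The cell type labels were checked against marker genes. In the macrophage libraries 17 macrophage markers, C1qa, Hmox1 and others, summed to between 1467 and 3080 RPM, and in the leukemia libraries to 819.5 and 834.9. The same macrophage libraries held between 3035 and 5109 RPM of 8 B cell markers, such as Cd79a, and the leukemia libraries 46.0 and 48.4. The B cell markers were thus above the macrophage markers in each of the 4 macrophage libraries, so their RNA is not that of macrophages alone. In such bulk samples, fewer cells of a type and less RNA per cell cannot be told apart.

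All 7 genes were detected in all 6 libraries. Together they took 36.6 RPM in WT macrophages (33.9 to 39.4) and 30.8 in WT/FE (28.2 to 33.6). Macrophages of leukemic mice had 242.4 in MA9 (235.0 to 249.9) and 122.2 in MA9/FE (116.9 to 127.7). MA9 leukemia cells had 136.5 (131.2 to 142.0) and MA9/FE leukemia cells 147.5 (142.0 to 153.3), between the 2 leukemic macrophage libraries. The 2 macrophage libraries without leukemia were thus the lowest of the 6, and MA9 macrophages the highest.

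**Figure D1:**
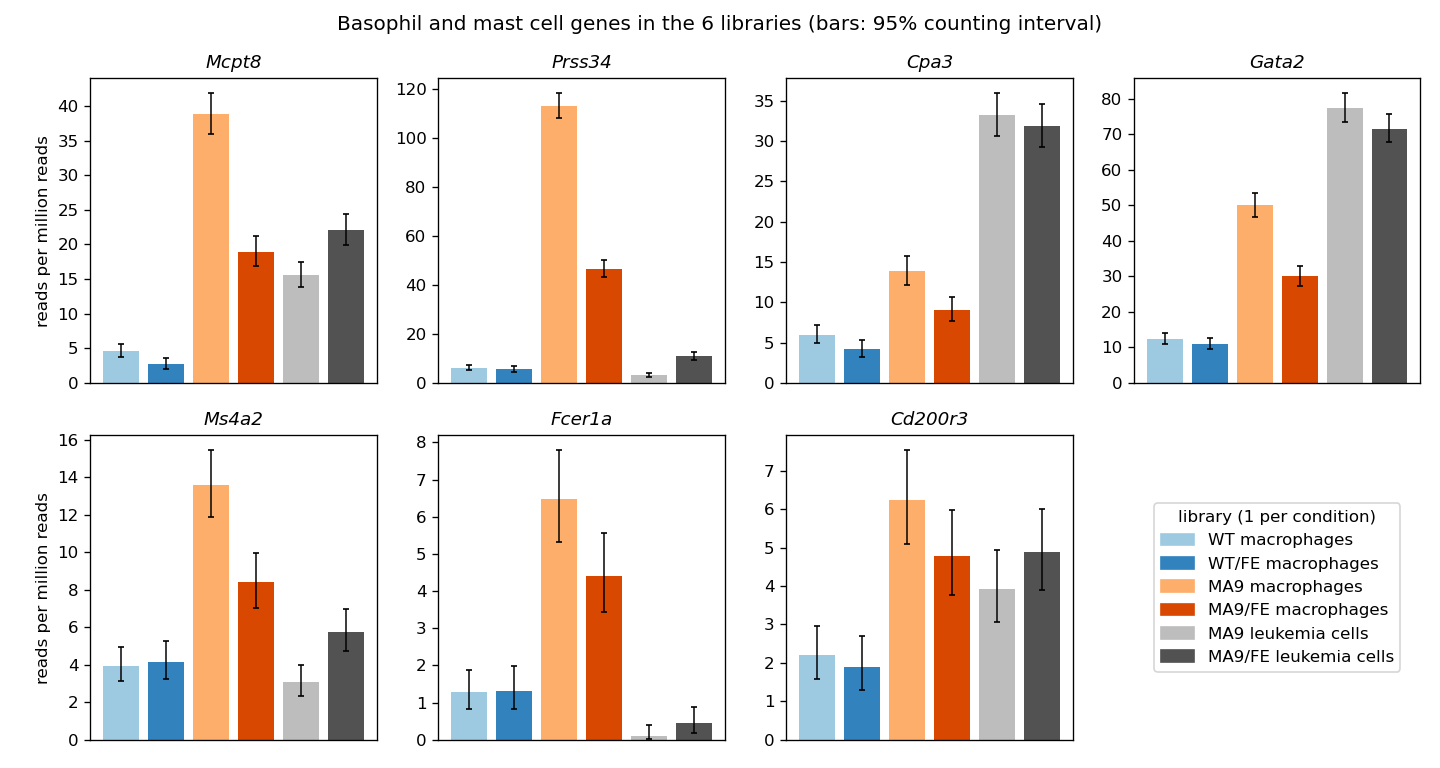
RPM of each of the 7 genes (vertical axis, own scale per gene, starting at 0) in the 6 libraries (bars), with 95% counting intervals. MA9 macrophages are the highest library for Mcpt8, Prss34, Ms4a2, Fcer1a and Cd200r3, and MA9 leukemia cells for Cpa3 and Gata2.

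Mcpt8 (ENSMUSG00000022157, chr14:56082166-56085273, minus strand in GRCm38) is named as a mast cell protease, but in mice its product is a protease of basophil granules. It had 4.57 FPKM in WT and 2.68 in WT/FE macrophages, against 38.9 in MA9 and 18.999 in MA9/FE. MA9 leukemia cells had 15.6 FPKM, and those of MA9/FE mice had 22.1. These values rest on 89, 45, 660 and 305 reads in the macrophages and on 283 and 394 in the leukemia cells. Both leukemic macrophage libraries were above both libraries without leukemia. The leukemia cells lay on either side of the MA9/FE macrophages, with counting intervals that overlapped theirs. The microRNA gene Mir6949 overlaps Mcpt8 on the same strand, so their reads cannot be told apart.

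Prss34 (ENSMUSG00000056399, chr17:25298394-25300165, plus strand) encodes a tryptase-like serine protease of basophils. It had 5.14 FPKM in WT and 4.65 in WT/FE macrophages, against 93.2 in MA9 and 38.4 in MA9/FE. MA9 leukemia cells had 2.58 FPKM, and those of MA9/FE mice had 9.03. This was the widest span of the 7 genes among macrophages, from 95 reads in WT/FE to 1927 in MA9. Unlike Mcpt8, it was lower in MA9 leukemia cells, with 57 reads, than in any macrophage library. Of neighbours in this order, WT and WT/FE macrophages alone had overlapping intervals. Reads of Prss34 came out whole at a length of 1216 bases, not at the 1220 bases of its exons in GENCODE M21, and the former was used.

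Cpa3 (ENSMUSG00000001865, chr3:20215620-20242181, minus strand) encodes carboxypeptidase A3, a granule enzyme of mast cells that basophils and early progenitors also make. It had 3.92 FPKM in WT and 2.75 in WT/FE macrophages, against 9.15 in MA9 and 5.94 in MA9/FE. The leukemia cells had the highest levels, 21.9 FPKM in MA9 and 20.97 in MA9/FE, from 603 and 568 reads. Neighbours in this order differed beyond counting error among the macrophages, and the 2 leukemia libraries did not. For WT and WT/FE macrophages this holds by the interval of their ratio, since the intervals of the 2 levels overlapped. The microRNA gene Mir7007 overlaps Cpa3 on the same strand.

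Fcer1a (ENSMUSG00000005339, chr1:173221284-173227214, minus strand) encodes the alpha chain of the IgE receptor, the chain that binds IgE. It had 1.28 FPKM in WT and 1.31 in WT/FE macrophages, against 6.48 in MA9 and 4.42 in MA9/FE. In leukemia cells it was nearly absent, with 2 reads in MA9 and 8 with iron. Its reads in macrophages were 25, 22, 110 and 71, so the intervals are wider than for the proteases. WT and WT/FE were apart by less than the counting error.

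Ms4a2 (ENSMUSG00000024680, chr19:11615523-11623719, minus strand) encodes the beta chain of the IgE receptor, which amplifies its signal. It had 1.40 FPKM in WT and 1.48 in WT/FE macrophages, against 4.83 in MA9 and 2.98 in MA9/FE. MA9 leukemia cells had 1.10 FPKM, and those of MA9/FE mice had 2.05. The order among macrophages was that of Fcer1a. The MA9 leukemia cells, the WT and WT/FE macrophages and the MA9/FE leukemia cells, in this rising order, each overlapped their neighbour in counting interval.

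Cd200r3 (ENSMUSG00000036172, chr16:44943678-44981380, plus strand) encodes an activating receptor of the CD200 receptor family on basophils and mast cells. It was the lowest of the 7 per length in each macrophage library, with 0.368 FPKM in WT and 0.318 in WT/FE, against 1.04 in MA9 and 0.800 with iron. Leukemia cells had 0.653 FPKM in MA9 and 0.814 in MA9/FE, from 71 and 87 reads. They lay between the libraries without leukemia, which were below them, and MA9 macrophages, and overlapped MA9/FE macrophages in counting interval.

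Gata2 (ENSMUSG00000015053, chr6:88193891-88207032, plus strand) encodes the transcription factor named above, which is also made in blood stem and progenitor cells. It had 2.30 FPKM in WT and 2.03 in WT/FE macrophages, against 9.27 in MA9 and 5.55 in MA9/FE. The leukemia cells had 14.4 FPKM in MA9 and 13.3 in MA9/FE, above each macrophage library as for Cpa3. The intervals of WT and WT/FE macrophages overlapped, and so did those of the 2 leukemia libraries. The interval of the ratio of MA9/FE to MA9 leukemia cells, 0.856 to 0.997, still lay below 1.

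The first comparison asked how macrophages of leukemic mice differ from those of WT mice without iron, the contrast behind the choice of the genes. All 7 were higher in MA9, with ratios from 2.34 to 18.1 and 7 of 7 intervals above 1. Prss34 had the highest ratio, 18.1 (15.1 to 21.96), and Mcpt8 the next, 8.51 (6.81 to 10.7). The IgE receptor chains had ratios of 5.05 (3.25 to 8.14) for Fcer1a and 3.44 (2.65 to 4.52) for Ms4a2. Gata2 had 4.04 (3.50 to 4.68), Cd200r3 2.83 (1.97 to 4.13) and Cpa3 2.34 (1.86 to 2.94). On the FPKM scale 6 of 7 were called higher, where 3.81% of all tested genes were, and nothing is read from that count because the contrast chose the genes. The gene just inside the threshold was Cpa3, with a log2 fold change of 1.06, and the gene just outside was Cd200r3, with 0.58 at its low FPKM.

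In mice under iron load the same contrast rested on other libraries, MA9/FE against WT/FE. All 7 were again higher, with ratios from 2.01 to 8.26 and 7 of 7 intervals above 1. Prss34 had 8.26 (6.66 to 10.3) and Mcpt8 7.08 (5.16 to 9.91), followed by Fcer1a with 3.37 (2.06 to 5.71) and Gata2 with 2.74 (2.30 to 3.26). Cd200r3, Cpa3 and Ms4a2 had 2.51, 2.16 and 2.01. On the FPKM scale 4 of 7 were called higher against 2.95% of all tested genes, and by a ratio of at least 2 it was 7 of 7 against 7.49%. The selection may have used this contrast too, so these values are a description.

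**Figure D2:**
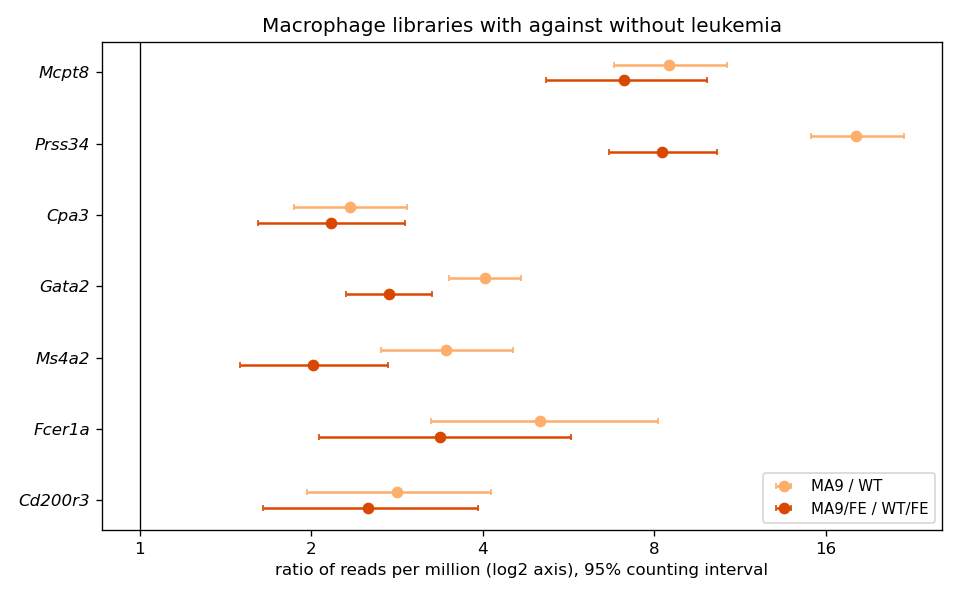
Ratio of RPM (log2 axis) between leukemic and non-leukemic macrophages for each of the 7 genes, without iron (MA9 / WT) and with iron (MA9/FE / WT/FE), with 95% counting intervals. All 14 points lie above 1, from 2.01 for Ms4a2 with iron to 18.1 for Prss34 without.

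Within leukemic macrophages, iron dextran went with lower levels. Every one of the 7 had its lower level in MA9/FE, with ratios from 0.412 to 0.768, and 6 of 7 intervals lay below 1. Prss34 had 0.412 (0.378 to 0.448), Mcpt8 0.488 (0.425 to 0.560), Gata2 0.599 (0.534 to 0.670) and Ms4a2 0.618 (0.496 to 0.767). Cpa3 had 0.649 and Fcer1a 0.682. Cd200r3 had 0.768 with an interval of 0.565 to 1.04, so no difference was detectable at this depth. On the FPKM scale 1 of 7, Prss34, was called lower against 1.24% of all tested genes, and by RPM alone 2 of 7, Prss34 and Mcpt8, were lower by a fold of at least 2 against 8.12%. The 7 genes had a median log2 fold change of -0.52, beside 0.01 for all tested genes. Neutrophil markers were lower in MA9/FE too, with sums of 1729 and 852.8 RPM, while macrophage markers were higher, with 1467 and 3080, and the part of either in the values of the 7 genes was not tested. This comparison shares the MA9 library, in which the genes were chosen as high, with the contrast of MA9 against WT.

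Without leukemia the ratios lay closer to 1, a difference that was not tested. In WT/FE against WT macrophages 5 of 7 genes were lower and 2 higher, and 0 of 7 were called, where 0.698% of tested genes were called higher and 0.541% lower. Mcpt8 had a ratio of 0.587 (0.401 to 0.850) and Cpa3 0.701 (0.514 to 0.951), the 2 intervals that lay below 1. The others ran from 0.865 for Cd200r3 to 1.06 for Ms4a2, with intervals that held 1. The sum of the 7 had a ratio of 0.843 (0.751 to 0.945) here and 0.504 (0.478 to 0.532) in leukemic macrophages.

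In leukemia cells 5 of 7 genes were higher with iron and 2 lower. Prss34 was higher in MA9/FE with a ratio of 3.50 (2.59 to 4.78), Ms4a2 with 1.87 (1.34 to 2.64) and Mcpt8 with 1.42 (1.21 to 1.66). Gata2 was lower at 0.924 (0.856 to 0.997), and Cpa3 at 0.958 and Cd200r3 at 1.25 had intervals that held 1. Fcer1a had 8 reads against 2, a ratio of 4.07 (0.812 to 39.3). Of the 6 genes past the minimum of 10 reads, Prss34 was called higher, against 0.399% of all tested genes. By a ratio of at least 2 it was Prss34 and also Fcer1a, which is under that minimum, against 3.40%. The sum of the 7 had a ratio of 1.08 (1.02 to 1.14).

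**Figure D3:**
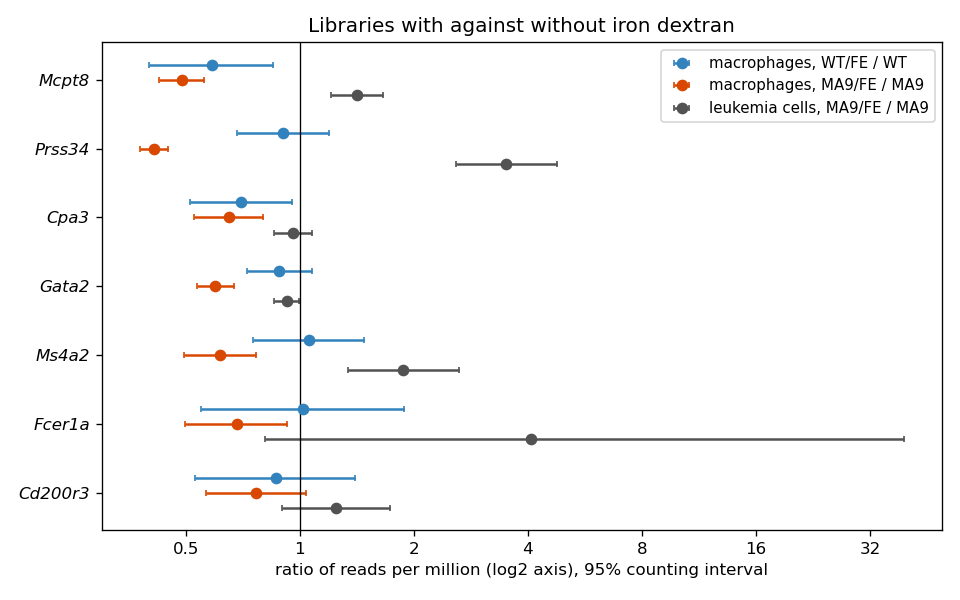
Ratio of RPM with against without iron dextran (log2 axis) for each of the 7 genes in WT macrophages, leukemic macrophages and leukemia cells, with 95% counting intervals. In leukemic macrophages all points lie below 1, from 0.412 for Prss34 to 0.768 for Cd200r3, whereas in leukemia cells Prss34 (3.50), Ms4a2 (1.87) and Mcpt8 (1.42) lie above 1.

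The leukemia cells and the macrophages of the same condition were then set side by side. In MA9 leukemia cells Cpa3 was higher than in MA9 macrophages with a ratio of 2.39 (2.05 to 2.79), and so was Gata2 with 1.55 (1.42 to 1.69). The other 5 were lower, from Cd200r3 at 0.627 (0.458 to 0.855) and Mcpt8 at 0.402 (0.348 to 0.462) to Ms4a2 at 0.227 and Prss34 at 0.028 (0.021 to 0.036). Fcer1a, with 2 reads against 110, had a ratio of 0.017 (0.002 to 0.063). On the FPKM scale 1 gene was called higher and 4 lower, against 7.36% and 12.7% of tested genes. Under iron, 2 genes were called higher, Cpa3 and Gata2, and 2 lower, Prss34 and Fcer1a, against 9.63% and 13.2%.

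Read the other way, the level in MA9 macrophages was 41.8% of that in MA9 leukemia cells for Cpa3 and 64.6% for Gata2, but 249.1% for Mcpt8, 440.5% for Ms4a2 and 3610% for Prss34. The azurophil granule genes Mpo, Elane, Prtn3, Ctsg and Ms4a3, which are abundant in these leukemia cells, stood at 2.58% to 9.40% in MA9 macrophages. The 9 progenitor and MLL-AF9 genes ran from 1.10% for Hoxa10 to 256.2% for Flt3, with a median of 10.3%, and the 12 neutrophil markers from 14.5% for Mmp8 to 158.7% for Ltf, with a median of 51.7%. Over the 7 genes the median was 249.1%, a value from the MA9 macrophage library, in which the genes were chosen as high. In MA9/FE macrophages against MA9/FE leukemia cells the 7 ran from 28.3% for Cpa3 to 985.0% for Fcer1a. Gata2 stood there at 41.9%, Mcpt8 at 85.9% and Cd200r3 at 98.2%, with Ms4a2 at 145.5% and Prss34 at 425.2%. Prss34, Fcer1a, Ms4a2, Mcpt8 and Cd200r3 were higher in MA9 macrophages than in MA9 leukemia cells, while Cpa3, Gata2 and all 5 azurophil genes were lower. The part of leukemia cells in the macrophage values was not tested.

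The make-up of the signal differed between the kinds of library. Prss34 took 27.1% and 30.6% of the summed FPKM of the 7 genes in WT and WT/FE macrophages, and 57.2% and 49.8% in those of leukemic mice. In leukemia cells it took 4.58% and 13.1%, where Cpa3 took 38.9% and 30.5% and Gata2 25.5% and 19.3%. Mcpt8 varied less, from 17.6% in WT/FE macrophages to 32.2% in MA9/FE leukemia cells. The FPKM of Prss34 over that of Mcpt8 was 1.13, 1.73, 2.40 and 2.02 in the macrophages and 0.165 and 0.408 in the leukemia cells. The FPKM of the alpha chain Fcer1a over that of the beta chain Ms4a2 ran from 0.886 to 1.48 in the macrophages and was 0.101 and 0.219 in the leukemia cells.

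**Figure D4:**
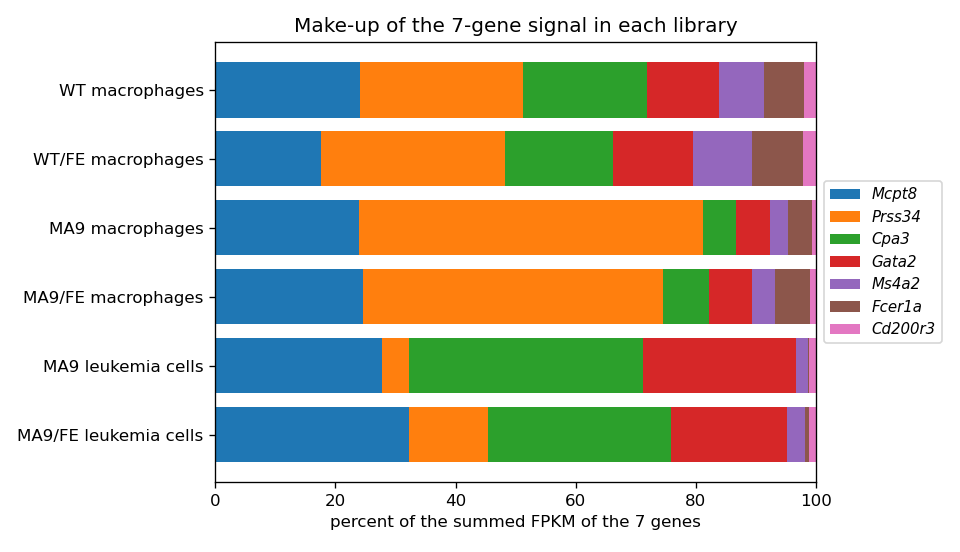
Percent of the summed FPKM of the 7 genes (horizontal axis) taken by each gene in each of the 6 libraries (stacked bars). Prss34 takes 57.2% in MA9 macrophages and 4.58% in MA9 leukemia cells, where Cpa3 is the largest share at 38.9%.

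Other genes of the same cells were taken from a list of 16 further basophil genes. In MA9 against WT macrophages 1 of the 14 past the read minimum was called higher and 0 lower. The median log2 fold change was 0.06, beside -0.0030 for all tested genes. The called gene was Hdc, which makes histamine, with 0.842 FPKM in WT and 0.736 in WT/FE macrophages, against 2.84 in MA9 and 1.59 with iron. In leukemia cells Hdc had 21.9 and 17.6 FPKM. Of the cytokine receptors, Il3ra, the alpha chain of the IL-3 receptor, did not follow, with 8.27 FPKM in WT and 8.98 in MA9 macrophages. Neither did its partner Csf2rb, with 38.0 and 31.4. Crlf2, a chain of the TSLP receptor, had 61.7 and 48.0 FPKM, and Cd63, a granule membrane protein, 7.42 and 9.71. These 4 have the highest FPKM of the list when the leukemia libraries are included, and each is also made by other blood cells. Among the lower genes, reads of the cytokine receptor Il1rl1 rose from 68 in WT to 137 in MA9 macrophages. Those of Alox5 rose from 93 to 224, of Il6 from 20 to 64 and of Cyp11a1 from 79 to 129. None of these was called, and the pseudocount of 1 understates their folds. Reads of Csf2rb2, Itga2, Ptger3 and Ccr3 fell.

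Of 14 mast cell genes, 8 passed the read minimum in that comparison, and 1 was called higher and 0 lower, with a median of -0.23. The one called was Rgs13, a regulator of G protein signalling, with 1.33 FPKM in WT and 4.05 in MA9 macrophages. Kit, the receptor for stem cell factor, was the most abundant, with 26.8 FPKM in WT and 24.4 in MA9, and Hpgds had 6.38 and 4.77 and Slc18a2 1.98 and 4.32. The list summed to between 226.7 and 300.6 RPM in macrophages and to 113.7 and 110.5 in leukemia cells, mostly Kit. Of its proteases, the chymase gene Cma1 had 59 reads in WT and 38 in WT/FE macrophages, against 20 in MA9 and 35 with iron, so it was not higher with leukemia. Mcpt1 and Mcpt4 each had 14 reads in WT and 0 in MA9, and the tryptase genes Tpsab1 and Tpsb2 and the protease gene Mcpt2 had at most 4 reads in any library. Mcpt9, Tph1 and Mrgprb2 had 0 reads in all 6 libraries, a count that allows up to 3 reads in each.

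Most neighbours of the 2 proteases on the chromosome were under the read minimum. Mcpt8 lies in a cluster of mast cell proteases and granzymes, of which 6 of 15 passed the read minimum in MA9 against WT, and 2 were called higher, Mcpt8 itself and Ctsg, with a median of -0.29. Ctsg, a neutrophil granule protease, had 0.942 FPKM in WT, 28.1 in MA9 and 16.1 with iron in MA9/FE, but 1091 and 1154 in leukemia cells. Gzmb had 14.7 and 16.1 FPKM in WT and MA9, and Cma1 2.77 and 1.08. Of 10 genes of the tryptase cluster, 2 passed, Prss34 and Prss30, and Prss30 had 36.8 FPKM in WT and 29.6 in WT/FE, against 22.2 in MA9 and 24.3 with iron, so it was not higher with leukemia. Tpsb2 and Prss29, the next most abundant, had at most 7 reads.

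The downstream side of the IgE receptor was abundant in all macrophage libraries and also serves other receptors. Of 14 signalling genes all passed, and 0 were called in MA9 against WT, with a median of -0.05. Fcer1g, the gamma chain shared with IgG receptors, had 180.4 FPKM in WT and 171.3 in MA9 macrophages, and the kinases Lyn and Syk had 98.2 and 80.0, and 89.8 and 75.8. The adaptor Grb2 had 122.8 and 119.1. Of 5 genes of the CD200 family 4 passed and 0 were called, with a median of -0.0028. The inhibitory receptor Cd200r1 had 4.13 and 3.16 FPKM, Cd200r4 0.676 and 1.04, and the ligand Cd200 10.1 and 5.56.

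Gata2 was seen together with other factors of the GATA network. Of 12 such genes 4 were called higher and 0 lower in MA9 against WT macrophages, with a median of 0.06. Besides Gata2 these were Gata1, with 2.21 and 11.5 FPKM, its partner Zfpm1, with 12.9 and 29.1, and Tal1, with 1.98 and 11.4. In MA9/FE macrophages Gata1 had 6.30, Zfpm1 18.1 and Tal1 4.93 FPKM, below MA9. Unlike Gata2, these 3 were low in leukemia cells, where Gata1 had 0.384 and 0.207 FPKM and Tal1 0.189 and 0.243. The abundant factors Lmo2, Ldb1, Lyl1 and Cebpa had log2 fold changes from -0.22 to 0.20.

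Genes of other cell types moved with the 7 genes. Of 12 neutrophil markers 10 were called higher in MA9 against WT, and their median log2 fold change was 4.62. Their sum was 22.03 RPM in WT and 18.8 in WT/FE macrophages, against 1729 in MA9 and 852.8 with iron, while leukemia cells had 2455 and 1885. S100a8, S100a9, Ngp and Camp led, with 410.5, 646.3, 371.97 and 219.98 FPKM in MA9 against at most 1.08 in WT, and Ltf, Lcn2, Retnlg, Mmp8, Cd177 and Ly6g were the others called. All 5 measured azurophil genes were called higher, with a median of 3.92 and sums of 10.4, 9.64, 301.7 and 160.5 RPM. These sums and that of the 7 genes were in the same order over the 4 macrophage libraries, with MA9 highest and MA9/FE next.

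Erythroid genes were higher too, 7 of 9 with a median of 1.19, among them Hba-a1, Hbb-bs, Hbb-bt, Klf1, Alas2 and Epor, with Hba-a2 among the 4 most abundant but not called. They summed to 210.4, 284.1, 415.3 and 530.3 RPM over the macrophage libraries. Here MA9/FE was the highest macrophage library, unlike for the 7 genes. Of 6 megakaryocyte markers past the minimum 3 were called higher, among them Pf4 and Itga2b, and Gp9 was not, with sums of 29.3, 31.4, 68.9 and 44.5. Eosinophil markers had 2 of 8 called, Prg2 and Alox15, and not Ear2, Siglecf and Ccr3, with sums of 117.5, 132.7, 122.2 and 174.2. Siglecf, with 0.588 FPKM in WT and 2.04 in MA9 macrophages, was just under the threshold at a log2 fold change of 0.95. Of 9 progenitor and MLL-AF9 genes 2 were called, Cd34 and Myb, and not Flt3 and Hoxa9, with sums of 348.5, 333.7, 386.7 and 294.6. Hoxa9 was not unchanged: its reads rose from 13 in WT to 75 in MA9 macrophages. Its log2 fold change of 0.68 is understated by the pseudocount of 1, since its FPKM were 0.119 and 0.791. Flt3 went the other way, from 5109 to 3414 reads.

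Macrophage markers, led by Hmox1, C1qa, C1qb and C1qc, had 0 of 17 called in MA9 against WT, with a median of -0.09, but 9 of 17 were called higher in MA9/FE against MA9, with a median of 1.06. B cell markers, such as Cd79a, Cd79b and Cd22, had 0 of 8 called in MA9 against WT, with a median of -0.64, and T and NK cell markers, led by Nkg7, Cd4, Cd8a and Ncr1, 0 of 8 with -0.02. The B cell sum was 3035 RPM in MA9 macrophages and 4665 with iron, the opposite order to the 7 genes. The part of any of these cell types in the values of the 7 genes was not tested.

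The same lists were read in the iron comparisons. In MA9/FE against MA9 macrophages 1 of 15 further basophil genes was called higher, Ccr3, with a median log2 fold change of -0.23. Over all genes 194 of 16362 were called higher. Ccr3 is also on the eosinophil list, and its reads rose from 560 in WT to 803 in WT/FE macrophages. Hdc, Alox5, Il6, Cyp11a1 and Il1rl1 had log2 fold changes from -0.55 to -0.28, whereas Crlf2, Ltc4s, Il4 and Il3ra ran from 0.28 to 0.59. Of the mast cell genes 0 of 6 were called, with a median of 0.32. Of the 14 genes of IgE receptor signalling 0 were called, with a median of 0.11. Of the GATA network Tal1 was called lower, 1 of 12 with a median of -0.22. Neutrophil markers had 3 of 12 called lower, Ngp, Lcn2 and Cd177, with a median of -0.91, and azurophil genes 0 of 5 with -0.74. In MA9/FE against MA9 leukemia cells 0 of 10 further basophil genes were called, with a median of -0.17, and 0 of 12 neutrophil markers with -0.43. Prss34, Ms4a2 and Mcpt8 were higher with iron in leukemia cells, while Gata2 and Cpa3 were not. The medians of these lists were below 0 there, but single genes of the further basophil list went either way. Reads of Il1rl1 rose from 2 in MA9 to 21 in MA9/FE leukemia cells, and those of Cyp11a1 from 6 to 29. Reads of Hdc fell from 2542 to 2005, and those of Cd63 from 4404 to 3680.

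**Figure D5:**
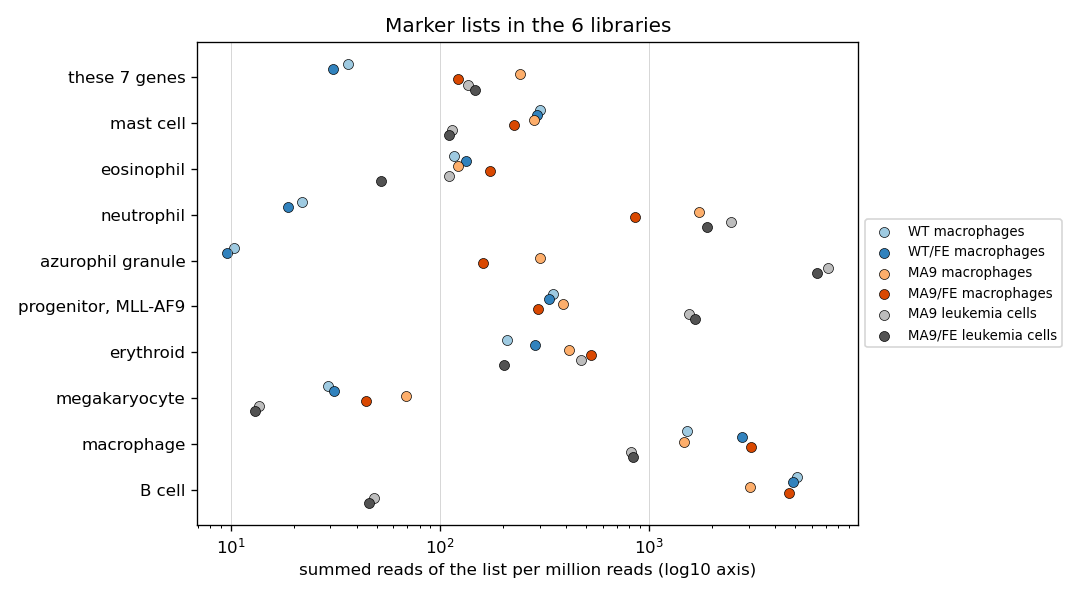
Summed RPM (log10 axis) of the 7 genes and of 9 marker lists in each of the 6 libraries (points). The 7 genes run from 30.8 in WT/FE to 242.4 in MA9 macrophages, and the neutrophil and azurophil lists also have MA9 and then MA9/FE as the highest macrophage libraries, while the B cell list stays between 3035 and 5109 in the macrophage libraries.

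The genes whose pattern was most like the mean of the 7 were sought over the 6 libraries. The measure was Pearson's r of log2(FPKM + 1), among 4599 genes with at least 50 reads in a library and a range of at least 1. The first was Ccl4, a chemokine, with r of 0.98 and 25.7, 18.1, 69.6 and 43.0 FPKM in the macrophages and 32.0 and 42.3 in the leukemia cells. Gstm5, Ppa1, Gclm, Tcf19, C1qtnf12, H1fx, Mns1, S1pr2 and Mybl1 followed, down to r of 0.91. The points share libraries of 2 kinds of cell, and of these 10 genes 0 were among the 10 most alike over the 4 macrophage libraries alone. Among the 7 themselves, r with the mean of the other 6 ran from 0.973 to 0.999 over the 4 macrophage libraries, and from 0.30 for Cpa3 to 0.98 for Cd200r3 over all 6. The macrophage values rest on 4 points and on the contrast that chose the genes, so nothing is read from their height.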

How the data were processed

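RNA of sorted macrophages (4 libraries) and leukemia cells (2) was sequenced on an Illumina NovaSeq. The submitters' processing notes name Bowtie2 2.2.5, RSEM and mm10, and the annotation is not given in the sources used here. The authors deposited FPKM for 54532 genes, 1 library per condition, and 54495 have an exon length in GENCODE M21. Multiplied by that length, between 96.8% and 97.0% of the deposited FPKM values above 0 were whole reads within 0.05 reads, so counting error could be computed. Other reads are approximate.

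Folds are on log2(FPKM + 1) after TMM scaling coded by hand, for genes with at least 10 reads in 1 of the 2 libraries, without a test. A pseudocount of 1 understates the fold of low genes. Ratios of RPM have exact conditional binomial intervals, and levels exact Poisson intervals, at 95%. The 7 genes and all lists were chosen with earlier results of these data known. Named in each list are at least its 4 genes of highest FPKM and any called in MA9 against WT macrophages. Over all genes, the 10 most like the 7 are named. Some genes of the lists are not reported here by name. Alternatives were other scalings, pseudocounts and read minimums. Promoters are RefSeq's (GRCm38.p6). The steps were tested on simulated data. Work was done with scipy 1.17.1, numpy 2.4.6, pandas 2.3.3 and Python 3.11.15, and plots with matplotlib 3.10.9.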

Additional observations from a re-analysis of the deposited data

Results flagged for a closer look

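Iron dextran went with lower levels in macrophages of leukemic mice and higher levels in leukemia cells for 3 of the 7 genes, with counting intervals on opposite sides of 1. In macrophages without leukemia this held for Mcpt8 alone of the 3. The difference between the kinds of cell was not tested, since each condition has 1 library. The 3 genes were picked by this pattern. Its macrophage side shares the MA9 library, in which the 7 genes were chosen as high. Mcpt8 had a ratio of 0.587 in WT/FE against WT macrophages and 0.488 in MA9/FE against MA9 macrophages, whereas in MA9/FE against MA9 leukemia cells it was 1.42. Prss34, the other basophil granule protease, had 0.412 in leukemic macrophages and 3.50 in leukemia cells, and 0.905 in WT/FE against WT macrophages, with an interval of 0.685 to 1.19. Ms4a2, the beta chain of the IgE receptor, had 0.618 in leukemic macrophages and 1.87 in leukemia cells, and 1.06 in WT/FE against WT macrophages, with an interval of 0.753 to 1.48.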

How the results depend on the processing

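Of 334 fold changes of the 7 genes under the alternatives, 326 moved by less than their counting error and 8 by more, and 0 of the called ones changed direction. By the ratio of RPM, an alternative chosen after seeing the data, 7 genes were called in MA9/FE against WT/FE macrophages (4 on the FPKM scale), 2 in MA9/FE against MA9 macrophages (1) and 2 in MA9/FE against MA9 leukemia cells (1). That ratio differs from the main setting in pseudocount, scaling and read minimum together, and with a pseudocount of 0.1 alone the 3 counts were 6, 1 and 1. Over all tested genes that pseudocount gave 1058 of 16426 called higher, 853 of 16362 lower and 309 of 15290 higher in the same order. In leukemia cells the added gene is Fcer1a, which the minimum of 10 reads leaves out. With the trend on exon length removed, also chosen after seeing the data, 2 genes were called in MA9/FE against MA9 macrophages, where 281 of all 16362 tested genes were called lower against 203 before, and the cause was not tested. That alternative also moved the share of higher calls among all genes from 64.6% to 44.4% in MA9/FE against WT/FE and from 48.9% to 30.8% in MA9/FE against MA9 macrophages. Without hemoglobin and immunoglobulin genes in the total, the summed level was 256.0 RPM in MA9 and 130.4 in MA9/FE macrophages, since the total is smaller. No paired analysis was possible because each condition has 1 library, and for the same reason no library could be left out. Depth limits Fcer1a in leukemia cells, with 2 and 8 reads.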
